A study of Mus musculus with 16 samples.

Results

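Interferon response genes are the genes that cells switch on when interferon binds its receptor, and 41 of them were followed here by their symbols. Of these, 40 were found among the 23420 genes of each deposited table, and Ifi27 was not. The study compared RNA of sorted mouse bone marrow progenitors with and without the gene Tet2, which encodes an enzyme that oxidizes 5-methylcytosine in DNA. Both populations were Kit-positive cells without lineage markers or CD150. Multipotent progenitors (MPP) also carried Sca1 and CD48, whereas granulocyte-monocyte progenitors (GMP) lacked Sca1 and carried CD16/32. Within each population 4 libraries labelled Tet2KO, of genotype Tet2-/-, were set against 4 labelled WT, whose genotype field reads Tet2fl/fl. All animals were 40 weeks old, each library came from 1 mouse, and 3 mice of each genotype gave both populations. The labels name no Cre driver and no strain. In bulk RNA of this kind, a change in the share of a cell type and a change in RNA per cell cannot be told apart.

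Type I interferons signal through the receptor chains IFNAR1 and IFNAR2 and the kinases JAK1 and TYK2. These phosphorylate STAT2, which acts with IRF9 in the complex ISGF3. ISGF3 binds the interferon-stimulated response element (ISRE) in promoters, and the genes it turns on encode sensors of foreign nucleic acid, enzymes that block translation, membrane proteins that stop viral entry, and feedback inhibitors. Blood stem and progenitor cells are known to express part of this set without infection, and interferon can drive them into cycle.

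The ISRE was looked for in the promoters as GAAA, any 2 bases and GAAA again, or on the other strand TTTC, any 2 bases and TTTC, with overlapping matches allowed. The window ran from 250 bases before to 50 bases after each start site in the RefSeq promoter table (GRCm38.p6). The table held 37 promoters of 30 members, and 16 of these 30 genes (53.3%) had at least 1 match. Over all promoters of the table, 3.99% of genes had one, and among those whose mean reached 10 in either population 3.69%. The STAT dimer site GAS, searched as TTCNNNGAA, stood in 24.3% of the members' promoters and in 8.30% of all promoters. The stretches below show the element in the 120 bases before the start site of members that represent different arms of the response, and 2 promoters without a match that belong to genes changed below. ISRE letters are in capitals, and each stretch is read 5′ to 3′ on the gene's strand.
Isg15, chr4:156200819-156200938, minus strand: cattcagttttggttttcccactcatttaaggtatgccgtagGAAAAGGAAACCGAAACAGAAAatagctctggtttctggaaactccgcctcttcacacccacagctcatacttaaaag
Oas1a, chr5:120907526-120907645, minus strand: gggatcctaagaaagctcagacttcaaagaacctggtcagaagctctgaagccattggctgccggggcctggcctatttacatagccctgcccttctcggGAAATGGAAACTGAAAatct
Gbp2, chr3:142620543-142620662, plus strand: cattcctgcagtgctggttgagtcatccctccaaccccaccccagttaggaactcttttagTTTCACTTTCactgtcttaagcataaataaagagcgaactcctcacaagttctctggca
Ifitm2, chr7:140955962-140956081, minus strand: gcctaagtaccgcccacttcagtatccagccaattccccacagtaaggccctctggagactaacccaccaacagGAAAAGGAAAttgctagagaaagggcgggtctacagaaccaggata
Trim30a, chr7:104465194-104465313, minus strand: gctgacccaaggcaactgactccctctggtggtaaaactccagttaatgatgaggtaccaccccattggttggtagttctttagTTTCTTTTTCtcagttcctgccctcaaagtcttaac
Trim30b, chr7:104358647-104358766, minus strand: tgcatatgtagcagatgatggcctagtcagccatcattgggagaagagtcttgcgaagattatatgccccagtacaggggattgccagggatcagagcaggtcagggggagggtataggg
Irf9, chr14:55603865-55603984, plus strand: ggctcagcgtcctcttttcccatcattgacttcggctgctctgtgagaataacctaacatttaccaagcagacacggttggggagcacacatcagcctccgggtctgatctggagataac
Isg15 carried 3 overlapping matches, Oas1a 2 overlapping matches, and Gbp2, Ifitm2 and Trim30a 1 each. In Ifitm3 both matches lay after the start site, at positions 3 and 20 counted from the start, in the stretch chr7:141010716-141010742 on the minus strand, GAAAAGGAAActtctgaGAAACCGAAA. No match in the window of Irf9 or Trim30b says only that these letters are not there. The GENCODE M21 model of Trim30b starts at 104369884 on the minus strand, upstream of the start site used for its stretch. That of Irf9 starts at 55603571 on the plus strand, also upstream of the start site used. The promoter table held another Irf9 promoter (55604329 to 55604628), likewise without a match.

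The deposited tables give 1 row per gene and population: a mean over the 8 libraries, a log2 fold change (Tet2KO over WT), its standard error (SE), a p-value and an adjusted p-value from DESeq2. They hold no value per library, so neither the spread between mice nor an overlap of groups can be shown, and the depth of each library is unknown. Genes with a mean under 10, and genes marked as outliers, carry no adjusted p. A gene was called where its adjusted p was under 0.05 over all tested genes. Tet2 itself was called higher in the libraries labelled Tet2KO in both populations. Its log2 fold change was 0.44 in MPP (adjusted p = 0.00551) and 0.35 in GMP (adjusted p = 0.000409) in the authors' deposited table. That value covers the whole gene and does not check a deleted part, so the directions below rest on the labels and on the naming of the tables. The sort gates could be seen in the means: Ly6a, which encodes Sca1, stood at 28.2 ppm of the table's summed means in MPP and 1.77 in GMP, and the CD16 gene Fcgr3 at 2.04 and 47.6.

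In MPP, more interferon response genes had values above 0 than below in Tet2KO, and Trim30b, of a family of TRIM proteins encoded next to each other on chromosome 7, was the member called. It rose 1.99-fold (95% interval 1.42 to 2.77, adjusted p = 0.0138), at a mean of 80.3 normalized counts over both genotypes, in the authors' deposited table. Of the 40 genes, 36 passed the authors' filters, 3 were marked as outliers (Ifit2, Ifitm1 and Gbp3) and Ifit3 fell below the minimum mean. The 1 call among 36 compares with 0.616% of all 11859 tested genes called, or 0.346% called higher. Log2 fold changes lay above 0 for 26 of the 36 and below for 10, against 49.1% of all tested genes above 0. Their median was 0.13, against -0.00 for all. At an unadjusted p under 0.05 stood 8 members, all of them higher, which is 22.2% of those tested, whereas 4.92% of all tested genes were higher at that level and 4.80% lower. The call of Trim30b was lost at an adjusted p of 0.01 and with an empirical null.

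In GMP values above 0 again outnumbered those below, and the called members were Irf9, the DNA-binding part of ISGF3, Ifitm3, which blocks entry of enveloped viruses, and Ly6e, a lipid-anchored surface protein that restricts coronavirus entry. Again 36 of the 40 genes were tested, 3 were marked as outliers (Ifitm1, Ifi204 and Gbp2) and Ifit3 was too low. The 3 calls, all higher, stand beside 3.96% of all 11503 tested genes called with 1.75% called higher and 2.22% lower. The median log2 fold change of the members was 0.22, against 0.00 for all tested genes, and 29 lay above 0 and 7 below, where 50.1% of all tested genes lay above. An unadjusted p under 0.05 was reached by 11 members higher and 1 lower. That is 33.3% of those tested, against 16.4% of all tested genes. With an empirical null Ifitm3 was the remaining call, and those of Irf9 (adjusted p = 0.227) and Ly6e (adjusted p = 0.557) were lost. Since the members were chosen with results of these tables known, these counts describe them and test nothing.

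**Figure D1:**
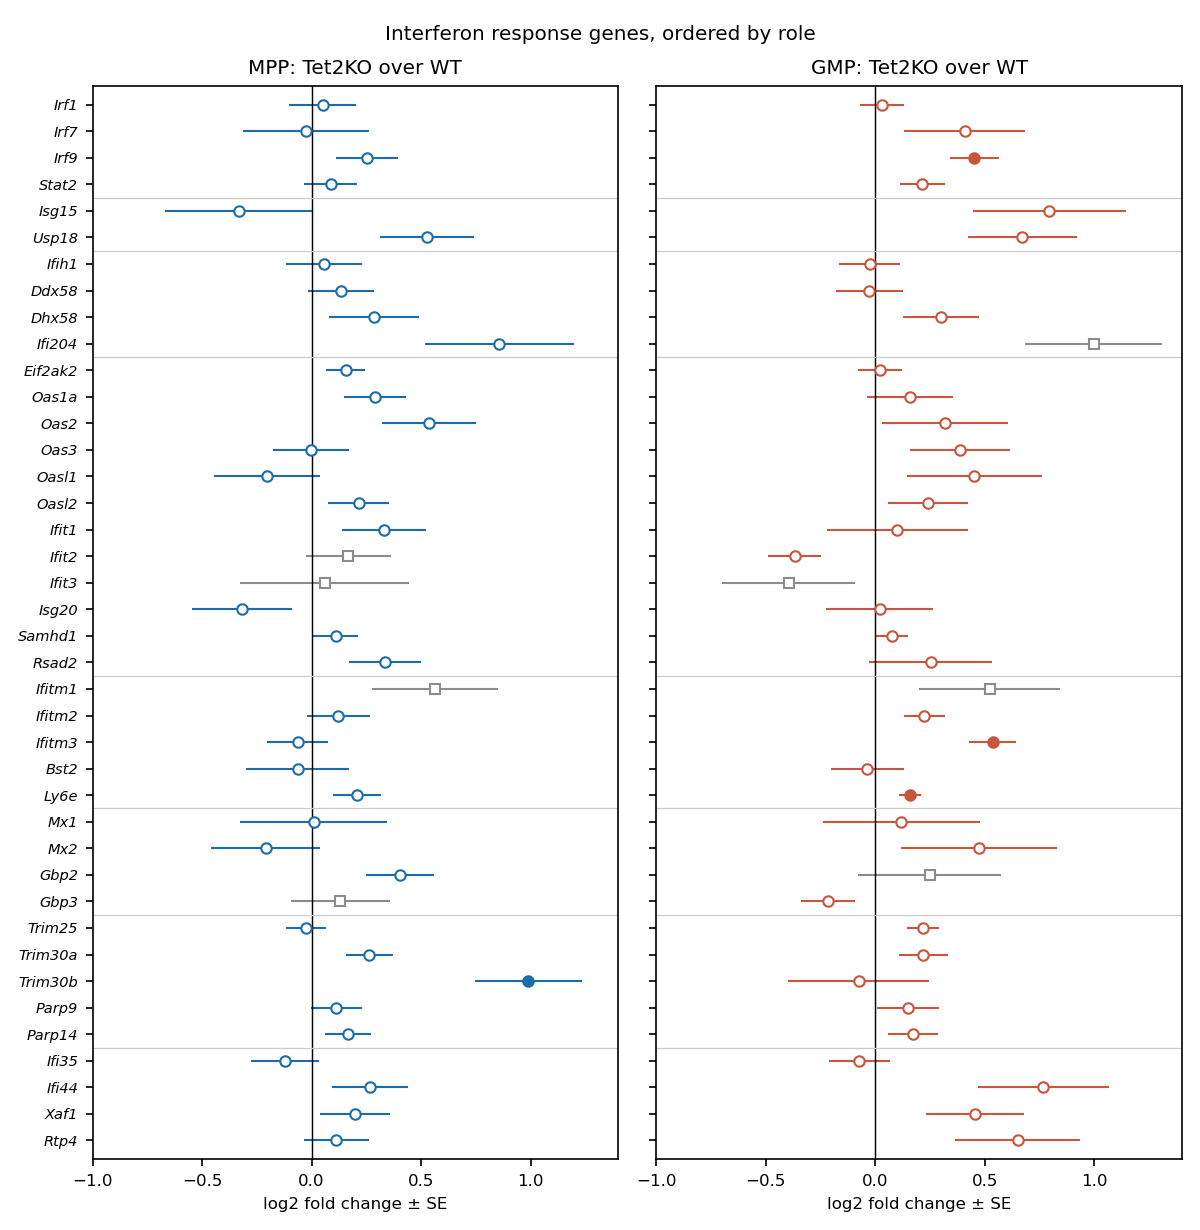
Log2 fold change (Tet2KO over WT) and SE for each of the 40 genes in MPP (left) and GMP (right), with lines between role groups. Filled circles passed an adjusted p of 0.05 (Trim30b in MPP, Irf9, Ifitm3 and Ly6e in GMP), open circles did not, and grey squares carry no adjusted p because the gene was marked as an outlier or as low. Points right of 0 are more frequent in both panels.

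**Figure D2:**
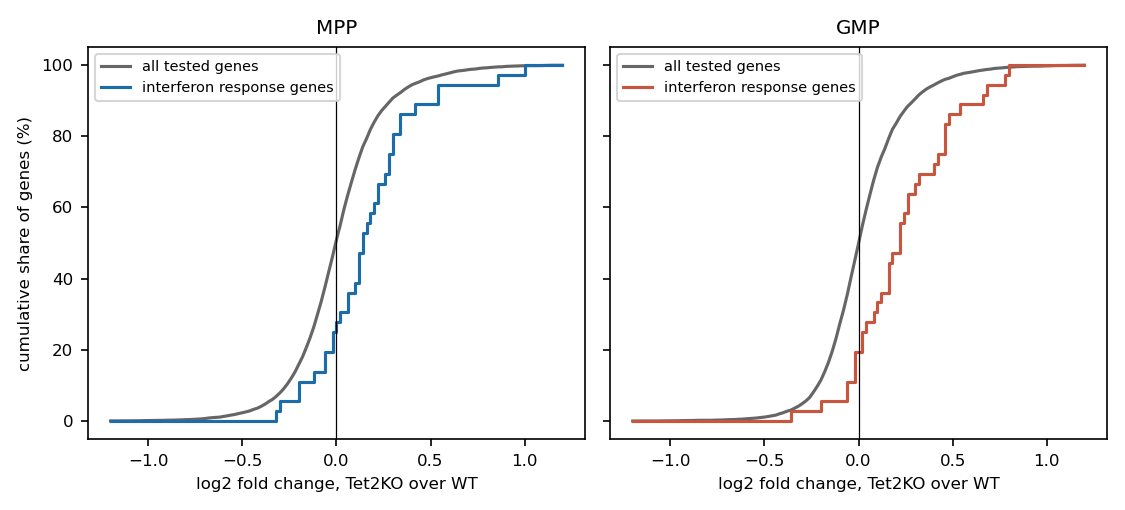
Cumulative share of genes (vertical axis, percent) at or below each log2 fold change of Tet2KO over WT (horizontal axis) for the 36 tested interferon response genes (coloured steps) and all tested genes (grey). The members' curve lies to the right, crossing 50% near their medians of 0.13 in MPP and 0.22 in GMP.

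Of the 4 transcription factors, 1 was called higher in GMP, where 1.75% of all tested genes were. All 4 lay above 0 there, against 50.1% of all tested genes. Irf9 rose 1.37-fold in GMP (95% interval 1.17 to 1.59, adjusted p = 0.00463, mean 352.0) in the authors' deposited table. In MPP its log2 fold change was 0.25 (SE 0.143, p = 0.0748, mean 590.0) in the authors' deposited table. Stat2, the partner of IRF9 in ISGF3, had values of 0.21 in GMP (SE 0.104, p = 0.0380) and 0.09 in MPP (p = 0.472) in the authors' deposited table. Irf7, which amplifies interferon production, was weakly expressed, with means of 86.0 in MPP and 26.6 in GMP, and its changes of -0.03 and 0.41 had SEs of 0.288 and 0.276 in the authors' deposited table. Irf1, the factor most tied to interferon gamma, stayed near 0 in both, at 0.05 and 0.03 in the authors' deposited table, and its 95% intervals of the fold ended at 1.28 and 1.17.

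Isg15 encodes a ubiquitin-like protein that is joined to other proteins during the response, and Usp18 the protease that removes it and also dampens the receptor. Usp18 had a log2 fold change of 0.53 in MPP (SE 0.213, p = 0.0134, mean 142.5) and 0.67 in GMP (SE 0.250, p = 0.00725, mean 49.2) in the authors' deposited table. Neither value passed adjustment (adjusted p = 0.343 and 0.105, DESeq2). Isg15 lay on opposite sides of 0, at -0.33 in MPP (SE 0.338) and 0.79 in GMP (SE 0.349, p = 0.0226) in the authors' deposited table. Its means were only 27.9 and 11.0 normalized counts. A change of at least 1.22 in MPP or 1.08 in GMP would have been needed for Isg15 to be called at its SE.

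No sensor of nucleic acid was called in either population. Ifi204, a DNA sensor of the chromosome 1 family, had the largest value among them, 0.86 in MPP (SE 0.341, p = 0.0118, mean 27.5) and 0.997 in GMP (SE 0.313, mean 44.0) in the authors' deposited table. In GMP it was marked as an outlier and carries no p there. When outlier-marked genes were included, it joined the called members in GMP. The RNA sensors Ifih1 (MDA5) and Ddx58 (RIG-I) were well expressed, with values of 0.06 and 0.13 in MPP and -0.03 and -0.03 in GMP in the authors' deposited table. None of these had an unadjusted p under 0.05. Dhx58, which encodes the regulator LGP2, had 0.28 in MPP and 0.30 in GMP, in the authors' deposited table (p = 0.167 and 0.0831).

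Effectors that act on RNA, nucleotides or translation made up the largest group, with 12 genes and no call. In MPP 7 of 10 tested members lay above 0 and in GMP 10 of 11, against 49.1% and 50.1% of all tested genes. The oligoadenylate synthetases make the messenger that activates RNase L. Oas2 had a value of 0.54 in MPP (SE 0.213, p = 0.0118, adjusted p = 0.330) and 0.32 in GMP (SE 0.287) in the authors' deposited table. Oas1a had 0.29 in MPP (p = 0.0406) and 0.16 in GMP (p = 0.418), and Oas3 -0.00 and 0.39, in the authors' deposited table. The synthetase-like genes Oasl1 and Oasl2 had -0.20 and 0.22 in MPP and 0.45 and 0.24 in GMP in the same tables. Rsad2, the viperin gene, had 0.33 in MPP (SE 0.164, p = 0.0421) and 0.25 in GMP (SE 0.281) in the authors' deposited table. Among the smallest SEs of this group were those of Eif2ak2 and Samhd1. Eif2ak2, the PKR kinase gene, had 0.16 (SE 0.0881, p = 0.0786) in MPP and 0.02 (SE 0.1003) in GMP in the authors' deposited table. Samhd1, a dNTPase gene, had 0.11 (SE 0.102) and 0.07 (SE 0.0748) there.

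The products of the IFIT genes bind foreign RNA. Ifit2 was the member with a value below 0 at an unadjusted p under 0.05 in GMP, at -0.37 (SE 0.123, p = 0.00264, adjusted p = 0.0592, mean 337.0) in the authors' deposited table. The authors' deposited table for MPP marked it as an outlier, at 0.17 (SE 0.196). Ifit1, its neighbour on chromosome 19, had 0.33 in MPP (p = 0.0855) and 0.10 in GMP (p = 0.757) in the authors' deposited table. Ifit3 had means of 9.21 in MPP and 1.61 in GMP, and it shares much of its sequence with Ifit3b, so its reads may be undercounted. The exonuclease gene Isg20 had -0.32 in MPP (p = 0.165) and 0.02 in GMP in the authors' deposited table.

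Of the 5 membrane protein genes 4 were tested in each population. They held 2 of the 3 calls in GMP, where 3.96% of all tested genes were called. None was called in MPP, where 0.616% of all were. Ifitm3 rose 1.45-fold in GMP (95% interval 1.25 to 1.68, adjusted p = 0.000115, mean 1571) in the authors' deposited table. In MPP, at a mean of 2170, its log2 fold change in the authors' deposited table was -0.06 (SE 0.139, p = 0.648). Ifitm2, beside it on chromosome 7, had 0.22 in GMP (SE 0.0952, p = 0.0186) and 0.12 in MPP (SE 0.145) in the authors' deposited table. Ifitm1 was marked as an outlier in both tables, with values of 0.56 in MPP (SE 0.287) and 0.52 in GMP (SE 0.322) in the authors' deposited table. Ly6e rose 1.12-fold in GMP (95% interval 1.04 to 1.197, adjusted p = 0.0497, mean 11765) in the authors' deposited table. This call lay at the edge of the threshold and was lost when fold changes were recentred on the median of all genes (adjusted p = 0.0501) or when low genes entered the adjustment (adjusted p = 0.0823). In MPP Ly6e had 0.21 in the authors' deposited table (SE 0.110, p = 0.0590). Bst2, the tetherin gene, had -0.06 and -0.04 in the authors' deposited table.

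Of the GTPases none was called. Gbp2, a guanylate-binding protein of the interferon gamma response, had 0.40 in MPP (SE 0.155, p = 0.00933, adjusted p = 0.305, mean 410.9) in the authors' deposited table. In GMP it was marked as an outlier, at 0.25 (SE 0.326) in the authors' deposited table. Gbp3 had -0.22 in GMP (SE 0.124, p = 0.0803) and was marked in MPP, at 0.13, in the authors' deposited table. Mx1 and Mx2, which trap viral nucleocapsids, had means of 43.7 and 44.4 in MPP and of 13.1 and 12.0 in GMP. Their values ran from -0.21 to 0.47 with SEs of at least 0.251 in the authors' deposited table.

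Among TRIM and PARP genes, Trim30b stood apart in MPP. In GMP its mean was only 13.9 and its value -0.08 (SE 0.321) in the authors' deposited table. Trim30a, which restrains NF-kB signalling, had 0.26 in MPP (SE 0.106, p = 0.0125) and 0.22 in GMP (SE 0.112, p = 0.0515) in the authors' deposited table. Both lie in a block of TRIM genes on chromosome 7, 104244457 to 104507849 (mm10, GENCODE M21). All 6 tested TRIM genes on the lists there had values above 0 in MPP, and 5 of 6 in GMP. Of all tested genes, 49.1% and 50.1% did. The lists were chosen with results known, so these counts describe the block and test nothing. Among them Trim34a had 0.40 in MPP (p = 0.00654) and Trim30d 0.56 in GMP (p = 0.00384, adjusted p = 0.0724) in the authors' deposited table. Trim25, the ligase that activates RIG-I, had 0.22 in GMP (SE 0.0736, p = 0.00294, adjusted p = 0.0623) and -0.03 in MPP (SE 0.0906) in the authors' deposited table. The ADP-ribosyltransferase genes Parp9 and Parp14 had 0.11 and 0.17 in MPP and 0.15 and 0.17 in GMP in the authors' deposited table.

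Of the 4 remaining tested genes none was called. An unadjusted p under 0.05 was reached by 3 of them in GMP, where 16.4% of all tested genes reached it, and by none in MPP, where 9.72% did. The difference between populations had an unadjusted p of at least 0.0945 for each of the 4. Ifi44, a gene of microtubule-linked aggregates, had 0.77 in GMP (SE 0.299, p = 0.0103, mean 44.8) and 0.27 in MPP (SE 0.174, mean 342.6) in the authors' deposited table. Rtp4, a Golgi chaperone gene, had 0.65 in GMP (SE 0.286, p = 0.0229) and 0.11 in MPP in the authors' deposited table. Xaf1, an antagonist of XIAP, had 0.45 (SE 0.224, p = 0.0426) and 0.20 in the authors' deposited table. Ifi35, which binds the protein NMI, had values of -0.07 in GMP and -0.12 in MPP in the authors' deposited table.

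Whether the genotype effect itself differed between the populations was asked for the 35 members with a p-value in both tables, as the difference of log2 fold changes over the root of the summed squared SEs. None passed Benjamini-Hochberg adjustment over 17660 genes, of which 8 (0.0453%) did, and 4 members had an unadjusted p under 0.05, against 3.58% of all genes. Those 17660 include genes marked as low, whereas 11050 genes, and 34 of the 35 members, were tested in both populations. The 3.58% is thus not a like background, and the share among the 11050 was not computed. The smallest adjusted p was that of Ifitm3 (0.335), where GMP exceeded MPP by 0.60 (95% interval 0.25 to 0.94). With the errors of both tables taken as correlated at 0.346, Ifitm3 passed (adjusted p = 0.0154). That correlation is the one of both statistics across genes. It mixes shared effects with shared mice, and the share due to mice was not tested. The other 3 were Trim30b (-1.07, 95% interval -1.86 to -0.28), Isg15 (1.12, 0.17 to 2.08) and Trim25 (0.24, 0.02 to 0.47). For Ly6e the interval ran from -0.29 to 0.19 and for Irf9 from -0.16 to 0.55.

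**Figure D3:**
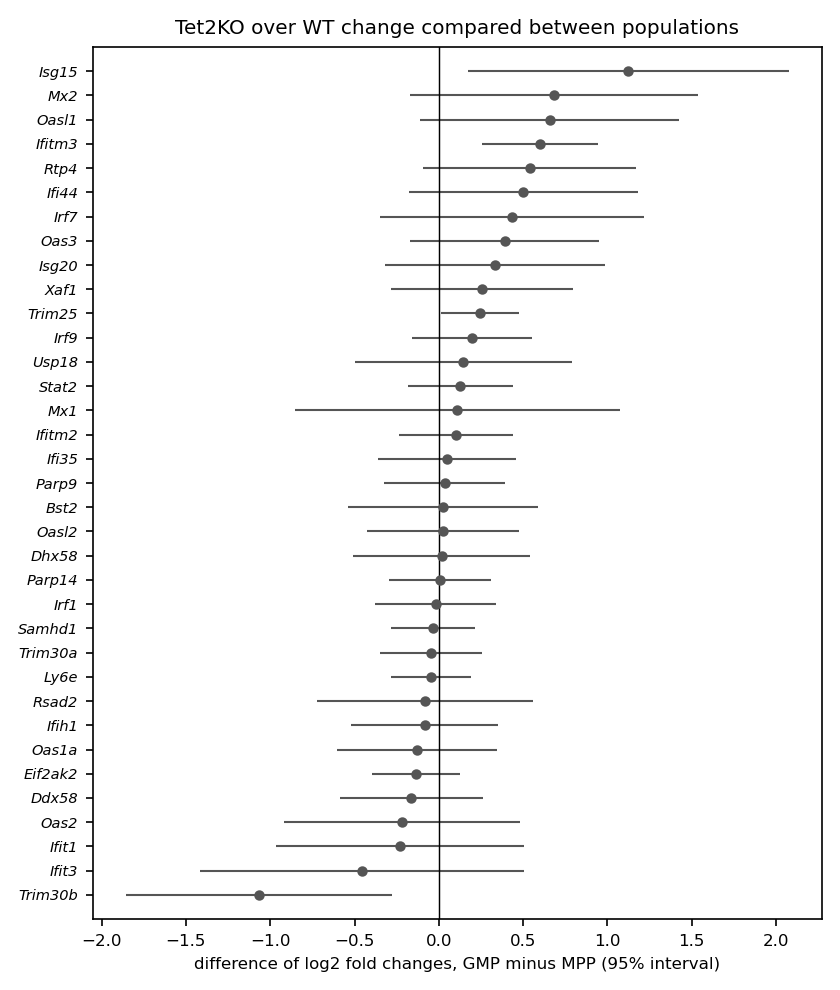
Difference of the log2 fold changes (GMP minus MPP) with its 95% interval for the 35 interferon response genes with a p-value in both populations, in order of size. Intervals of Isg15, Ifitm3 and Trim25 lie above 0 and that of Trim30b below 0, and no difference passed adjustment.

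The members' level, taken over both genotypes, was lower in GMP than in MPP. Means were scaled to the sum of each table because the tables were normalized separately, and they carry no spread, so no test is given. Of 39 members whose mean reached 10 in both populations, 35 were lower in GMP and 4 higher, and the median log2 ratio of GMP to MPP was -1.02. Over all 11618 such genes 34.7% were higher in GMP and the median was -0.16. At least 2-fold lower in GMP were 21 of the 39 members, against 9.20% of all such genes. With scaling by the median ratio the count was 17 of 39, against 7.51%.

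The gap was widest for Oas2, at 37.9 ppm in MPP and 2.84 in GMP, a 13.4-fold difference. Ifi44 went from 36.4 to 4.06 (8.95-fold), Trim30b from 8.53 to 1.26 (6.74-fold), Oas3 from 53.6 to 8.17 (6.57-fold) and Rtp4 from 38.7 to 6.21 (6.23-fold). Ddx58 was 3.94-fold lower in GMP, whereas the other RNA sensor gene Ifih1 was 1.66-fold lower. For the factors of ISGF3 the gap was narrower, 1.96-fold for Irf9 and 1.498-fold for Stat2. The members above MPP levels in GMP were Gbp3 (1.35-fold), Ifi204 (1.37-fold), Ly6e (1.28-fold) and Ifitm2 (1.02-fold).

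**Figure D4:**
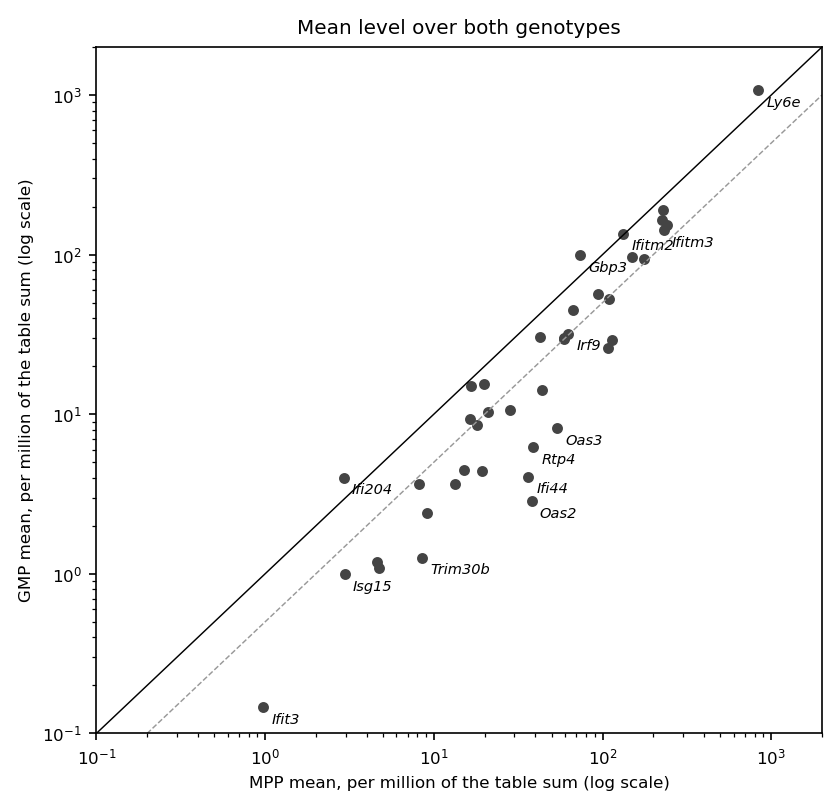
Mean level of the 40 genes in MPP (horizontal) and GMP (vertical), in ppm of each table's summed means, on log axes and over both genotypes. The solid line marks equal levels and the dashed line a 2-fold lower level in GMP, below which lie Oas2, Ifi44, Oas3, Rtp4 and Trim30b among others.

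Per kilobase of exon, the same membrane proteins led both populations. In MPP the normalized mean per kilobase was 3200 for Ifitm3, 2073 for Ly6e, 1901 for Ifitm2 and 944.9 for Ifitm1, followed by Eif2ak2 at 443.0. In GMP it was 3109 for Ly6e, 2317 for Ifitm3, 2271 for Ifitm2 and 528.4 for Ifitm1, followed by Trim25 at 364.9. The lowest were Ifit3, Ifi204 and Trim30b in MPP (5.28, 7.73 and 10.7) and Ifit3, Trim30b and Mx2 in GMP (0.922, 1.85 and 3.33). Without a spread of the means, neighbours in this order cannot be told apart.

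Some members share sequence with other genes, which bears on how reads of 75 bases could be assigned. At least 10% of the 75-base stretches of 5 members also occur in transcripts of another gene in GENCODE M21. These are Oas1a (47.6%, with Oas1g), Ifitm2 (42.0%, mostly with the overlapping model Gm45717), Ifit3 (41.1%, with Ifit3b), Ifi204 (13.2%, mostly with Ifi211) and Rtp4 (10.5%, with the overlapping model Gm45338). Their values are uncertain to that extent. Of the called members, Trim30b shared 0.39%, Ifitm3 0.66%, Irf9 0.85% and Ly6e none.

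The wider pathway was read from lists of 129 further genes, of which 124 were in the tables. Outlier marks removed 13 of these genes from testing in MPP, leaving 95, and 14 in GMP, leaving 87. Among the members 3 carried such a mark in each population. The background was 3.50% (MPP) and 2.66% (GMP) of all genes above the minimum mean. The shares below leave the marked genes out, and what led to the marks was not tested. In MPP none of 95 tested genes was called by DESeq2, with 9 higher and 1 lower at an unadjusted p under 0.05. The 9 are 9.47%, where 4.92% of all tested genes were higher at that level and 4.80% lower. In GMP 2 of 87 were called higher and 1 lower, with 12 higher and 5 lower at that unadjusted level. The 3 calls are 3.45% of the tested pathway genes, beside 3.96% of all, and the 17 are 19.5%, beside 16.4% of all. By direction, the 12 higher are 13.8%, where 7.73% of all were higher, and the 5 lower stand beside 8.68% of all. Above 0 lay 63.2% of the tested pathway genes in MPP and 72.4% in GMP, against 49.1% and 50.1% of all. The lists were chosen with results known, so these shares test nothing. The median log2 fold change of the pathway genes was 0.07 in MPP and 0.10 in GMP in the authors' deposited table, below that of the members in both. Interferon genes themselves were almost absent. Of the 9 on the list, 6 had a mean of 0 in MPP and 7 in GMP, and the only tested one was Ifnk, which had a mean of 14.2 in MPP and 10.9 in GMP.

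Among receptors and kinases, Ifngr1, a chain of the interferon gamma receptor, fell by 0.45 on the log2 scale in GMP in the authors' deposited table (SE 0.121, adjusted p = 0.00983). In MPP its value there was 0.00 (SE 0.137). With an empirical null the GMP call of Ifngr1 was lost, as was that of Irf8 below. Jak1 had -0.13 in GMP (SE 0.0452, adjusted p = 0.0676) and 0.09 in MPP (p = 0.229), and Tyk2 0.19 in MPP (p = 0.195), in the authors' deposited table. The type I receptor genes Ifnar1 and Ifnar2 had 0.04 and -0.04 in MPP and 0.02 and 0.17 in GMP in the authors' deposited table.

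Called higher in GMP were Irf8, a factor of monocyte and dendritic cell fate (0.496, SE 0.131, adjusted p = 0.00936), and Ifi203, a neighbour of Ifi204 on chromosome 1 (0.45, SE 0.0865, adjusted p = 4.14e-05), both in the authors' deposited table. In MPP Irf8 was marked as an outlier, at 0.47, and Ifi203 had 0.24 in the authors' deposited table (SE 0.109, p = 0.0282). The factor Irf3 had -0.11 in MPP in the authors' deposited table (p = 0.321). Of the inhibitors, the cytokine signalling suppressor genes Socs3 and Cish had 0.75 and 0.73 in GMP (p = 0.00946 and 0.0171), and the DNase gene Trex1 had 0.58 and the phosphatase gene Ptpn2 0.22 in MPP (p = 0.0160 and 0.0621), in the authors' deposited table. Among sensors in MPP, Ikbke, a kinase upstream of IRF3 and IRF7, had 0.37 in the authors' deposited table (p = 0.0438).

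**Figure D5:**
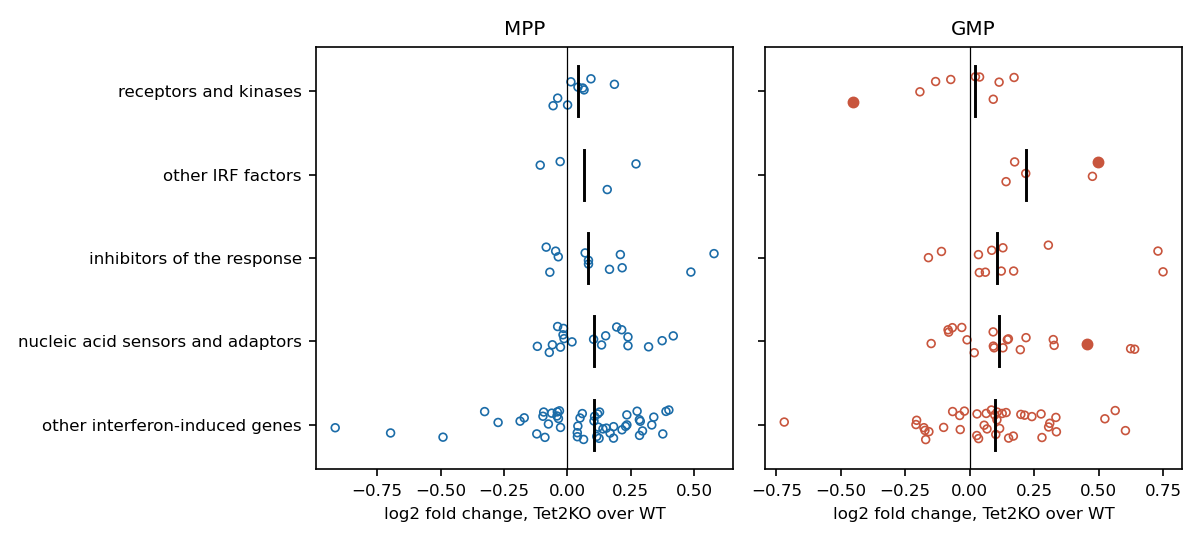
Log2 fold change of Tet2KO over WT for the tested genes of 5 pathway lists in MPP (left) and GMP (right), spread vertically within a list for sight only. Filled points were called (Ifngr1, Irf8 and Ifi203 in GMP), open points were not, and black bars give each list's median.

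Markers of other cells were read beside these values. Of 10 monocyte and macrophage markers 9 were in the tables. In GMP the 6 tested ones had a median of 0.06. Csf1r was called higher (0.56, adjusted p = 9.29e-05), Cx3cr1 had -0.30 (p = 0.0495), and the other 4 ran from 0.00 to 0.15, in the authors' deposited table. The 2 marked as outliers in GMP both lay above 0, Ly6c2 at 0.54 (SE 0.156) and Ccr2 at 0.40 (SE 0.134). They carry no p there, and with Csf1r they had the highest means of the list. In MPP 1 of 3 tested markers lay above 0, Cx3cr1 at 0.85 (p = 0.0128), with Cd163 at -0.32 (p = 0.0289) and C1qb at -0.51, in the authors' deposited table. The 5 marked as outliers in MPP went both ways there, with Ccr2 at 0.89, Ly6c2 at 0.79 and Csf1r at 0.34, and Mrc1 at -0.72 and C1qc at -0.51. The summed mean of the list was 1181 in MPP and 3621 in GMP over both genotypes, and it cannot be split by genotype from these tables. Of 10 mature neutrophil markers 3 were tested in GMP, where Mmp8 was called higher (1.36, adjusted p = 2.21e-05), Cxcr2 had 0.43 (p = 0.0117) and S100a8 -0.42 (p = 0.0949), in the authors' deposited table. The summed mean of the 10 was 247.0 in MPP and 903.9 in GMP. Most of it in GMP came from Cxcr2, at 641.6, and Lcn2, at 165.8. Lcn2 was marked as an outlier there, at -0.30 (SE 0.274) in the authors' deposited table. Ltf, Camp, Ngp, Mmp9 and S100a9 had GMP means of only 0.596 to 4.94, and Retnlg was at 0 in GMP. The part of such cells in the members' values was not tested. Plasmacytoid dendritic cells are the main source of type I interferon. The 8 listed markers of these cells differed widely in level. Siglech, Klk1, Cd209d and Spib were nearly uncounted, the highest mean being 1.81 (Siglech) in MPP and 0.751 (Spib) in GMP. Ly6d was also low, with 2.77 in MPP and 0 in GMP. By contrast, Tcf4 and Bcl11a were well expressed, with MPP means of 2736 and 2554 and GMP means of 1775 and 1382.5. Ccr9 lay between, at 56.6 in MPP and 16.4 in GMP. Of that list Ccr9 was called lower in MPP in the authors' deposited table (-1.22, adjusted p = 0.0299), and the 3 tested members lay below 0 in MPP and above 0 in GMP.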

How the data were processed

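The submitters' processing notes name STAR, the build mm10 and DESeq2, without versions. Neither the read counter nor the gene annotation is given in the sources used here. Per the labels' protocols, libraries came from 2 ng of amplified total RNA and single-end reads of 75 bp. The mean is a normalized signal, deposited by the authors as 1 value per gene and population. The log2 fold change with its SE, and the p-value with its adjusted form, are also the authors', per the file headers. SEs of all genes did not pass 0.388, and they were small even for nearly uncounted genes. Cd209d in MPP, at a mean of 0.132, had a log2 fold change of -0.04 (SE 0.0933). Such SEs mark fold changes shrunken towards 0, although the setting is not given. Changes of weak genes are thus understated, and this bears on their intervals and on differences between populations. Depth per library is unknown.

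The 41 genes, their roles and the pathway lists were chosen with earlier results of these data known. Members were named in full where the unadjusted p was under 0.05 in either table. Of each pathway list the called genes were named, or the 2 of smallest p where none was called, except for results that are not reported here. The test of the difference between populations treats errors as independent although mice are shared. On simulated data with the SEs of genes tested in both tables (11050 genes) it recovered 67% of differences of 1 and 27% of 0.5 on the log2 scale. Errors were independent there, and far more differences were planted than the 8 that passed among the 17660 genes adjusted here. The simulated cutoff was therefore looser, and these shares overstate the recovery of the test as run. Each table holds 27 names turned into dates, kept in the adjustment as deposited. Lengths, positions and shared 75-base stretches come from GENCODE M21. Tools were Python 3.11.15 with scipy 1.17.1, pandas 2.3.3, matplotlib 3.10.9 and numpy 2.4.6. Alternatives changed the threshold, the minimum mean, the centring, the null, the treatment of outlier-marked and low genes, the scaling and the length.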

Additional observations from a re-analysis of the deposited data

How the results depend on the processing

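The count of called members in MPP, 1, became 0 at an adjusted p of 0.01 and 0 with an empirical null, where Trim30b had an adjusted p of 0.122. In GMP the count of 3 became 1 with an empirical null, which left Ifitm3, while Irf9 had an adjusted p of 0.227 and Ly6e of 0.557. Over the other alternatives it ran from 2 to 4. Members whose change differed between populations numbered 0, and 1 with correlated errors. The count of called pathway genes in GMP went from 3 to 1 with an empirical null, which for these genes was chosen after seeing the data, and the remaining call was Ifi203 (adjusted p = 0.0285). All genes called numbered 73 in MPP and 17 with an empirical null, and 456 and 72 in GMP. The members' median stayed between 0.13 and 0.14 in MPP and between 0.16 and 0.22 in GMP. Of the 10 members highest per kilobase, 8 in MPP and 10 in GMP stayed so with the longest transcript as length. No paired analysis was possible because the tables hold no values per library, and for the same reason no replicate could be left out.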

Other observations

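The guanylate-binding protein genes, which encode large GTPases of the interferon gamma response, split by locus in MPP. These groups were picked after their values were seen, so the counts describe them only. In the block on chromosome 3 (142493978 to 142638008), Gbp2, Gbp5 and Gbp7 were tested in MPP and had log2 fold changes of 0.40, 0.12 and 0.38 in the authors' deposited table. In the block on chromosome 5 (105014150 to 105293698), Gbp4, Gbp6, Gbp8 and Gbp9 had -0.70, -0.92, -0.49 and -0.27 there. The gene models of Gbp4, Gbp8 and Gbp9 overlap on the minus strand, so their values may not be separate. Sequence shared among these genes was not checked. The unadjusted p was 0.00103 for Gbp7 and 0.00615 for Gbp6, and none was called. All 4 genes of the chromosome 5 block lay below the minimum mean in GMP, at 0.896 to 4.75, and at 20.5 to 70.9 in MPP.

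Schlafen genes, which are interferon-induced and restrain protein synthesis and cell growth, were tested for 3 of 5 listed genes of a block on chromosome 11. All 3 had values above 0 in both populations, where 49.1% (MPP) and 50.1% (GMP) of all tested genes did. Slfn9 had 0.34 in MPP (SE 0.107, p = 0.00151, adjusted p = 0.124) and 0.28 in GMP (SE 0.104, p = 0.00768, adjusted p = 0.110) in the authors' deposited table. Slfn8 had 0.04 and 0.34, and Slfn2 0.39 and 0.60, in the same tables. Slfn5 was marked as an outlier in both, with 0.38 and 0.30, and Slfn1 was low, with a mean of 0.532 in MPP and 0 in GMP. Outlier marks were frequent among the immunity-related GTPases. Igtp, Iigp1, Tgtp1 and Tgtp2 carried one in both tables, and Irgm1 and Irgm2 in GMP, where values of the 6 ran from 0.33 to 0.72 in the authors' deposited table. Ifi47 was unmarked and had -0.12 in MPP and -0.21 in GMP (p = 0.0333) in the authors' deposited table. Where the mean reached 10, 3.50% of all genes were marked in MPP and 2.66% in GMP.

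Members with an ISRE match and those without could be set side by side. In MPP 10 of 14 tested genes with a match and 7 of 12 without lay above 0, with medians of 0.13 and 0.08. In GMP 10 of 14 with a match and 10 of 13 without lay above 0, with medians of 0.19 and 0.22. The difference was not tested.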
